A study of Bos taurus with 17 samples.

Results

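Late differentiation on plastic was followed by comparing bovine umbilical cord mesenchymal stem cells after 21 days in a myogenic differentiation medium with the same kind of culture after 3 days. The comparison took 3 libraries of day 3 and 2 of day 21, out of 17 described for the series, and the 10989 of 12894 genes whose mean across these 5 reached 5. The study asked how cellulose scaffolds for cultivated meat support such cells, and plastic plates carried its time course without a scaffold. Cells were primary cultures of Bos taurus umbilical cord, kept in low-glucose medium with serum, seeded on plastic, and changed 1 day later (day 0) to the differentiation medium. Both groups compared here were in that medium, DMEM/F-12 with reduced serum, insulin, transferrin and selenium, albumin, dexamethasone, ascorbic acid 2-phosphate, VEGF, IGF and FGF, so these agents were common to day 3 and day 21. The labels name neither the animals nor a passage number. Libraries of 1 group are described as biological replicates, and the p-values measure the spread among 3 and 2 of them.

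Mesenchymal stem cells of the cord are fibroblast-like precursors that can enter bone, cartilage, fat and smooth or skeletal muscle programs under suitable factors. Skeletal myogenesis proceeds through withdrawal from the cell cycle and the sequential action of myogenic transcription factors to the sarcomere, whereas contractile smooth muscle and myofibroblast programs use actin and myosin genes driven by serum response factor with myocardin-related cofactors. RNA was read by MARS-seq, which sequences the 3′ ends of polyadenylated transcripts. All values below are normalized reads, that is, a library's reads divided by 1 scaling factor of that library, and they were compared on log2(value + 1), so a log2 change of 1 is about 2-fold except in genes with few reads, where it understates the change. They are not per length, so levels were compared between libraries and not between genes.

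The libraries held 3118284 to 8629658 reads at day 3 and 2197356 to 5264578 at day 21, and 1 read was worth 0.674 to 1.79 normalized reads at day 3 and 1.38 to 3.44 at day 21. Pearson's r across the 10989 genes was 0.962 to 0.980 between libraries of day 3, 0.961 between those of day 21 and 0.802 to 0.867 across the days. Of 11 fibroblast markers with a row, 10 passed the minimum, 8 were called higher at day 21 and 0 lower, with a median log2 change of 2.23. Their summed level was 87360.0 to 113000.0 at day 3 and 235400.0 to 296500.0 at day 21. Of epithelial and amnion markers, CDH1, KRT7 and KRT19 had 0 to 4 reads over the libraries of a day. Endothelial markers summed to 67.8 to 111 normalized reads at day 3 and 85.6 to 134 at day 21 over 5 genes. Of 13 listed blood and immune markers 5 had a row, and these summed to 32.1 to 84.2 at day 3 and 130 to 179 at day 21. In such bulk RNA, more cells of a type and more RNA per cell cannot be told apart.

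Between day 3 and day 21 the profile changed broadly. A gene was called at a limma adjusted p under 0.05 with a log2 change of at least 1, and 3522 of 10989 genes (32.1%) passed, 1618 (14.7%) higher and 1904 (17.3%) lower at day 21. In 3505 of these the 2 groups of libraries did not overlap, a separation found in 66.0% of all tested genes (32.5% higher and 33.5% lower at day 21). Genes named below as largest changes or as called list members were drawn from these 3505. Their separation between the days was therefore set by that choice and adds no support. The counts called higher and lower in each list below stand beside the 14.7% and 17.3% of all genes. Where 1 of the 2 day 21 libraries is left out below, day 21 is a single library, assumed to vary like the day 3 libraries, which alone give the spread. Changes of 4-fold or more were called in 617 genes upwards and 683 downwards, and changes of 16-fold or more in 142 and 56. Genes called higher took up 10.4% to 11.9% of normalized reads in each day 3 library and 32.1% to 33.3% in each day 21 library. Scaling every library to the same total lowered the median change of all genes by 0.324, and the split became 1091 higher and 2734 lower, or 28.5% higher against 45.9% as deposited. Just inside the minimum lay COA7 and DEF6, with means of 5.00113 and 5.00167, and just outside it SLC2A13 and ABHD1, with 4.99798 and 4.99358. Of the tested genes, 423 had a day 3 mean under 5 and 466 a day 21 mean under 5, so they entered through the other day, and 251 of the first were called higher and 251 of the second lower.

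**Figure D1:**
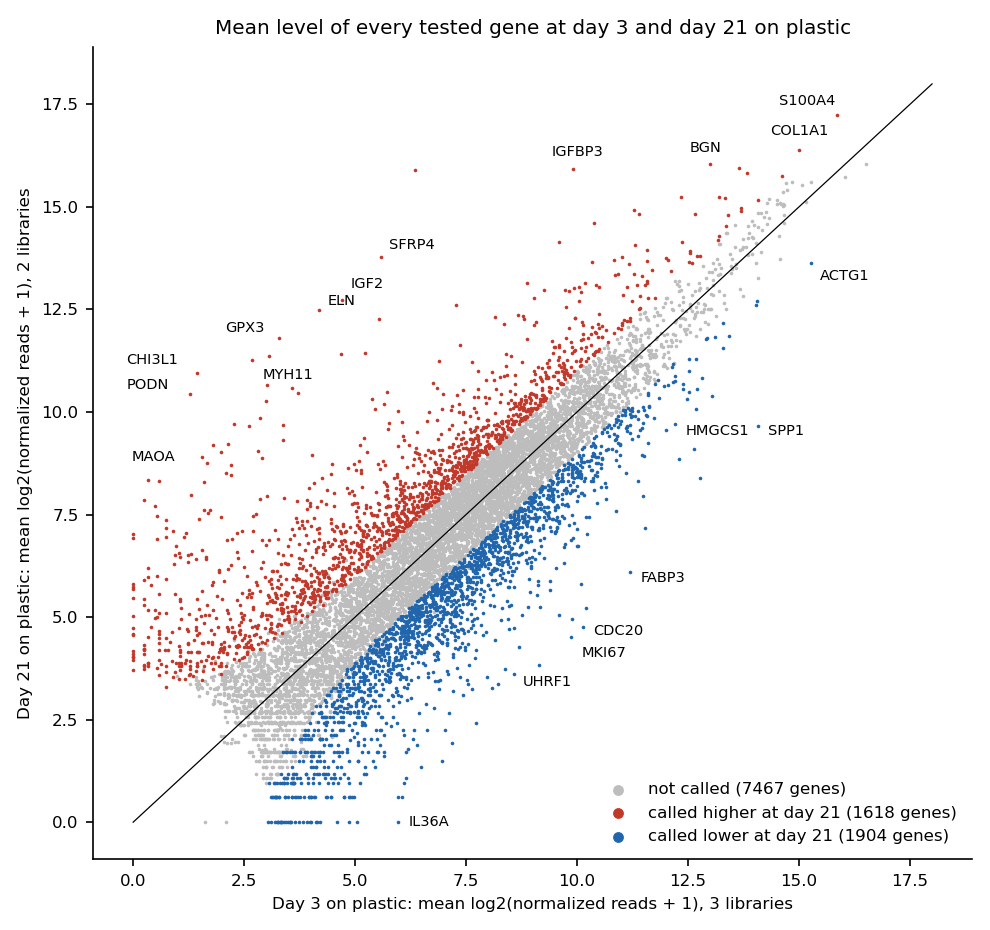
Each point is 1 of 10989 tested genes, with its mean log2(normalized reads + 1) over 3 day 3 libraries on the x axis and over 2 day 21 libraries on the y axis. The 1618 red and 1904 blue genes were called higher and lower at day 21, and of the genes with a printed name CHI3L1, PODN, MYH11 and GPX3 lie farthest above the line of equal levels, while MKI67, CDC20 and UHRF1 lie far below it.

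The largest log2 changes upwards among genes with a symbol began with CHI3L1 and PODN. CHI3L1, a secreted chitinase-like glycoprotein, read 1.35, 2.01 and 1.79 at day 3 and 2203 and 1801 at day 21, a log2 change of 9.53, SE 0.34, adjusted p = 3.3e-08. PODN, a small leucine-rich proteoglycan, read 4.04, 0 and 1.79 at day 3 and 1377 and 1416 at day 21 (9.18, SE 0.58, adjusted p = 1.5e-06). In parentheses here and below stand the log2 change of day 21 minus day 3, its standard error and the limma p adjusted over all tested genes. Both day 21 libraries lay far above all day 3 libraries in both genes, and separation was a condition of naming them. MYH11, GPX3, SCARA5, ELN, SFRP4, IGF2, SAA3, M-SAA3.2, NUPR1 and C1R followed with log2 changes from 8.59 to 7.43. Among falls, IL36A, a cytokine of the interleukin-1 family, had 186 reads over day 3 and 0 over day 21, which is at least 20.7-fold lower from a floor of 3 reads over the day 21 group. The next largest falls, PKMYT1, KIF15, CDC20, MKI67, ORC1, UHRF1, HMGB3, CENPA, CCDC88B, SPAG5 and FABP3, had log2 changes from -5.48 to -5.10. PKMYT1, KIF15, CDC20, MKI67, CENPA and SPAG5 act in mitosis, and ORC1 and UHRF1 in replication.

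Counted in reads, the rises among genes with a symbol were led by S100A4, a calcium-binding protein of motile fibroblasts, which read 65564, 73190.0 and 44165 at day 3 and 134940.0 and 175650.0 at day 21. IGFBP3, BGN, COL1A1, TPM2, ACTA2, IGFBP7 and RPS19 came next. The falls in reads, also among genes with a symbol, were led by the cytoskeletal actin ACTG1, at 39336, 34922 and 45602 and then 17272 and 9402, followed by SPP1, TUBA1B, PRDX1, PGAM1, S100A10, RF00002 (a ribosomal RNA) and HMGA1. HMGA1, a chromatin protein of proliferating and undifferentiated cells, read 6931, 8816 and 5561 at day 3 and 384 and 292 at day 21 (log2 change -4.38, SE 0.23, adjusted p = 3.8e-07). Under quantile normalization the calls of S100A4 and COL1A1 were lost.

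**Figure D2:**
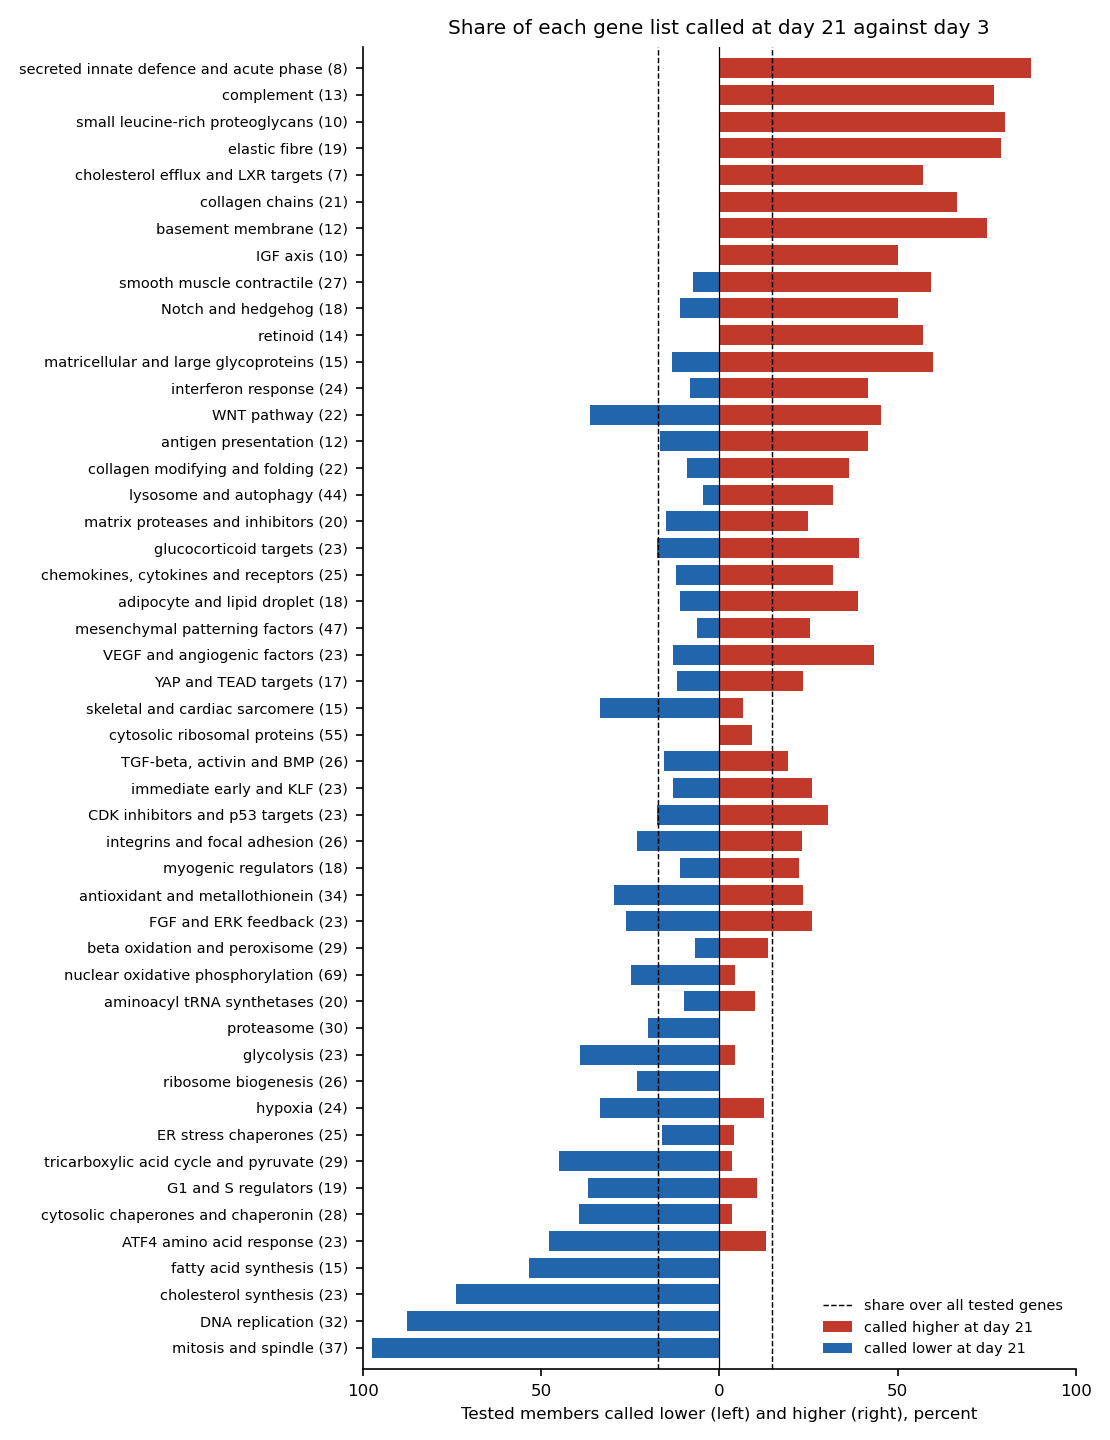
Bars give, for each of 49 gene lists, the percent of tested members (number in parentheses) called lower (blue, left) and higher (red, right) at day 21, ordered by median change, with dashed lines at 17.3% and 14.7%, the shares over all 10989 genes. Mitosis, replication, cholesterol and fatty acid synthesis stand at the lower end with 0 members called higher, and secreted innate defence, complement and matrix lists at the upper end.

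Cell division genes fell together. Of 37 tested genes of mitosis and the spindle, 36 were called lower and 0 higher at day 21, with a median log2 change of -3.09 against -0.03 over all genes. MKI67, the antigen of cycling cells, read 729, 1067 and 1060.4 at day 3 and 23.5 and 20.6 at day 21 (-5.35, SE 0.24, adjusted p = 1.7e-07). UBE2C, the ubiquitin-conjugating enzyme of the anaphase-promoting complex, read 1165, 1210.5 and 1182 and then 38.6 and 34.4 (-4.99, SE 0.20, adjusted p = 6.0e-08), and CDC20, an activator of that complex, read 1027, 1493 and 932 and then 16.6 and 41.2. In these 3 genes both day 21 libraries were far below every day 3 library, and separation was a condition of naming them. At day 0 MKI67 had stood at 1342 to 1772. CENPA, the centromeric histone, read 165, 107 and 171 at day 3 and 0 and 13.7 at day 21, from 4 reads over day 21, all in replicate 2.

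DNA replication genes moved the same way, with 28 of 32 called lower, 0 higher and a median of -1.91. UHRF1, which carries DNA methylation through replication, read 458, 617 and 636 at day 3 and 24.8 and 6.87 at day 21 (-5.31, SE 0.42, adjusted p = 6.9e-06). RRM2, the regulated subunit of ribonucleotide reductase, read 503, 398 and 853 and then 44.2 and 65.3, and GINS2, of the replicative helicase, 209, 231 and 184 and then 23.5 and 24.1. ORC1, of the origin recognition complex, had 178 reads over the 3 day 3 libraries and 1 over the day 21 libraries, a ratio of normalized reads of 59.5 with a 95% counting interval of 10.5 to 2363.

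G1 and S regulators were called in both directions: 7 of 19 were called lower and 2 higher, with a median of -0.79, which was -1.27 without replicate 2 of day 21 and -0.37 at a minimum mean of 20. Of the 7 falls, 3 had entered the test through day 3 alone. Transcription factors of the division program were among the 7. FOXM1, which activates mitotic genes, read 109.8, 167 and 116 at day 3 and 4.14 and 3.44 at day 21 (-4.76, SE 0.36, adjusted p = 4.7e-06), MYBL2 read 471, 884 and 739 and then 48.3 and 51.5, and the atypical repressor E2F8 read 51.2, 71.4 and 92.8 and then 0 and 3.44. The D-type cyclins CCND2 and CCND3, partners of CDK4 and CDK6, went the other way. CCND2 read 2272, 2869.7 and 2433 at day 3 and 8094 and 13553 at day 21 (2.06, SE 0.23, adjusted p = 6.8e-05), and CCND3 read 744, 818 and 482 and then 2531 and 2371 (1.88, SE 0.24, adjusted p = 1.3e-04). CCND2 had stood lower at day 0, at 1168 to 1693. CCND2 and CCND3 were the 2 members called higher, also after scaling to the same total.

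Inhibitors of cyclin-dependent kinases and targets of p53, 23 tested, had 7 called higher and 4 lower, with a median of 0.04 that was -0.29 after scaling to the same total. CDKN1C, the inhibitor p57, read 9.43, 6.04 and 3.57 at day 3 and 42.8 and 68.7 at day 21 (2.99, SE 0.50, adjusted p = 8.6e-04), the largest rise of the list. CDKN2D, the inhibitor p19, fell from 251, 287 and 307 to 96.6 and 82.5 (-1.64, SE 0.22, adjusted p = 2.3e-04). The stress sensors SESN2 and SESN1 separated. SESN2 rose from 139, 171 and 162 to 397 and 409, and SESN1 read 81.5, 26.2 and 53.6 at day 3 and 16.6 and 10.3 at day 21, a call lost without replicate 2 of day 21 or replicate 1 of day 3. With all libraries scaled to the same total 4 of the 23 were called higher, and without replicate 1 of day 21, 7 were called lower.

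Contractile genes of smooth muscle rose: 16 of 27 were called higher and 2 lower, with a median of 1.46. MYH11, the smooth muscle myosin heavy chain, read 6.06, 7.04 and 3.57 at day 3 and 2306 and 2632 at day 21, a log2 change of 8.59, SE 0.32, adjusted p = 4.8e-08, and had stood at 18.1 to 21.7 at day 0. MYLK, the kinase that activates smooth muscle myosin, read 2279.5, 2548 and 2690.3 and then 25819 and 37702 (3.64, SE 0.20, adjusted p = 6.3e-07). MYL9, the regulatory light chain, read 1832, 2088 and 1623 and then 11960.0 and 14937, and the intermediate filament gene DES 1456, 1717 and 880.1 and then 11838 and 14302. All of these separated the days without overlap, as the choice of named genes required. ACTA2, the smooth muscle actin, read 13227, 15213 and 15122 at day 3 and 57802 and 59320.0 at day 21 (2.01, SE 0.17, adjusted p = 8.3e-06). Its day 0 range of 25612 to 29929 lay above day 3. The 2 members called lower were MYOCD, the myocardin cofactor of this program, with 37.0, 51.3 and 62.5 at day 3 and 1.38 and 6.87 at day 21 from 3 reads, and the caveolin CAV1, whose call was lost without replicate 2 of day 21. The list had 4 members called lower after scaling to the same total and under quantile normalization.

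Of 51 listed genes of the skeletal and cardiac sarcomere, 15 were tested, with 1 called higher and 5 lower. The median of 0.32 turned to -0.35 under DESeq2, -0.34 under edgeR, -1.56 at a minimum mean of 20, -0.39 without replicate 2 of day 21 and -0.17 without replicate 3 of day 3. TNNT3, the fast skeletal troponin T, was the one that rose, from 1 read over 3 day 3 libraries to 74 over 2 day 21 libraries, at 0, 1.01 and 0 and then 73.1 and 72.2. Its ratio of normalized reads was 221, with a 95% counting interval of 38.5 to 8861. TPM3 fell from 1876, 1811 and 2360.0 to 473 and 715 (-1.78, SE 0.22, adjusted p = 1.3e-04), and ACTN3 and XIRP1 fell from 43.8, 66.4 and 37.5 and 18.9, 28.2 and 24.99 to 13.8 and 10.3 and 2.76 and 0. The summed level of the 19 members in the table, 3367 to 4417 at day 3 and 3424 to 4292 at day 21, overlapped between the days. Most of it came from TPM3, which fell, and NEXN, which moved the other way and was not called. NEXN read 1268, 1568 and 1898 at day 3 and 2773 and 3323 at day 21, so the sum says little about the other members. Without replicate 1 of day 21, 4 members were called higher, and 2 without replicate 3 of day 3.

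Of 18 tested regulators of myogenesis, 4 were called higher and 2 lower, and MYOD1 and MYOG were not analysed here. Without replicate 2 of day 21, 0 members were called higher, and without replicate 3 of day 3, 2 were. ID1, an inhibitor of myogenic helix-loop-helix factors, read 816, 993 and 952 at day 3 and 342 and 258 at day 21 (-1.62, SE 0.20, adjusted p = 1.4e-04). Its day 0 range was 1698 to 2034. MEF2C, a partner of the myogenic factors, read 62.0, 65.4 and 58.9 at day 3 and 30.4 and 55.0 at day 21, and its log2 change of -0.59, SE 0.34, adjusted p = 0.18 was not called.

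**Figure D3:**
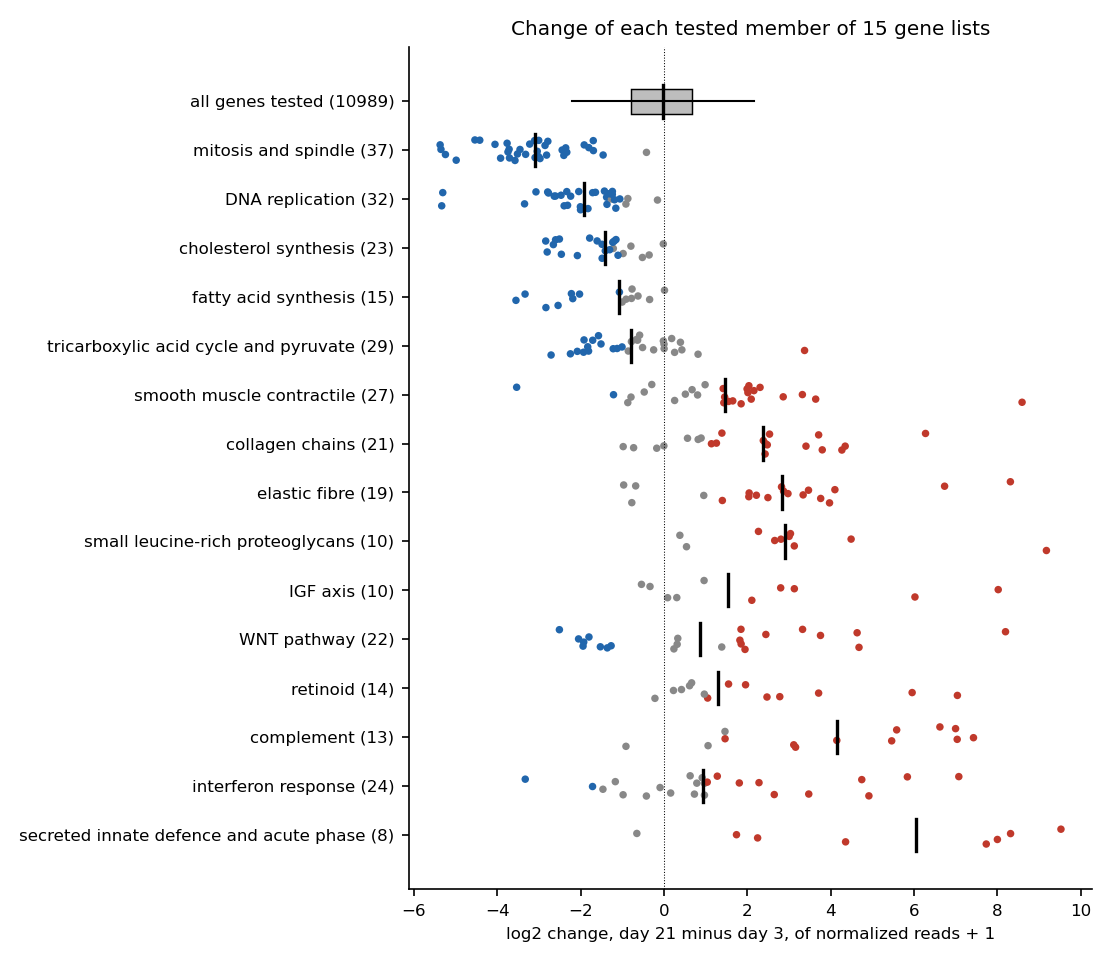
Points are the log2 changes (day 21 minus day 3) of the tested members of 15 gene lists, red where called higher, blue where called lower and grey where not called, with the list median as a black bar and the number tested in parentheses. For all genes the box spans the quartiles and the line the 5th to 95th percentile. The median of mitosis genes is at -3.09 and that of complement genes at 4.15.

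Matrix genes rose across several families, together with the fibroblast markers given above, some of which (COL1A1, DCN, MFAP5) belong to both. The part of a change in cell makeup in these rises was not tested. Of 21 collagen chains, 14 were called higher and 0 lower, with a median of 2.38. The fibrillar chain COL1A1 read 33305, 30897 and 34016 at day 3 and 73457 and 100140.0 at day 21, and COL5A3, a minor fibrillar chain, 4.72, 5.03 and 1.79 and then 429 and 292 (6.28, SE 0.45, adjusted p = 3.3e-06). COL4A2 of basement membranes read 118, 98.6 and 143 and then 2382 and 2484 (4.35, SE 0.21, adjusted p = 2.7e-07), COL18A1 593, 556 and 312 and then 8589.7 and 9563, and COL8A1 333, 322 and 319.6 and then 4147 and 4952. In each of these chains the day 21 libraries lay above all day 3 libraries, as the choice of named genes required. Collagen chains took 0.869% to 1.06% of normalized reads at day 3 and 2.49% to 2.61% at day 21. After scaling to the same total 2 chains were called lower.

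Elastic fibre genes had 15 of 19 called higher, 0 lower and a median of 2.82. ELN, tropoelastin, read 22.2, 21.1 and 10.7 at day 3 and 6636 and 5048 at day 21 (8.31, SE 0.31, adjusted p = 4.8e-08). MFAP5, of the microfibrils on which elastin is laid down, read 20.2, 29.2 and 24.99 and then 2546 and 2900.2 (6.73, SE 0.24, adjusted p = 3.6e-08). FBLN5, a fibulin needed for fibre assembly, read 35.0, 37.2 and 28.6 and then 708 and 491, and the fibulin EFEMP1 80.2, 45.3 and 41.1 and then 1253 and 574. At day 0 ELN had stood at 16.2 to 20.8 and MFAP5 at 12.3 to 20.5.

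Small leucine-rich proteoglycans, which bind and space collagen fibrils, had 8 of 10 called higher and 0 lower, with a median of 2.91. BGN, biglycan, read 9283, 9608 and 6237 at day 3 and 66973 and 67976 at day 21 (3.04, SE 0.21, adjusted p = 2.8e-06), DCN, decorin, 481, 292 and 278 and then 2789 and 2673, and FMOD, fibromodulin, 1069, 1041 and 655 and then 7872 and 7883. The list's share of normalized reads went from 0.150% to 0.211% at day 3 to 1.16% and 1.18% at day 21. Basement membrane genes had 9 of 12 called higher and 0 lower, with a median of 1.67. The laminin chain LAMA4 read 398, 461 and 366 and then 5770.1 and 4897 (3.71, SE 0.19, adjusted p = 3.6e-07), and LAMB3 2.69, 3.02 and 0 and then 81.4 and 103.

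Matricellular proteins, which signal from the matrix, had 9 of 15 called higher and 2 lower. IGFBP7 read 4859.5, 5032 and 5650.1 at day 3 and 38255 and 39015 at day 21 (2.90, SE 0.17, adjusted p = 8.3e-07), and SPON1 and SPON2, the spondins, rose by 3.77 and 6.21 on the log2 scale. SPP1, osteopontin, went against them, at 16047, 16629 and 19391 and then 631 and 1021 (-4.43, SE 0.22, adjusted p = 3.0e-07), and had stood at 6268 to 7208 at day 0. The other fall, of THBS1, was lost without replicate 3 of day 3 or replicate 2 of day 21, and THBS2 of the same family rose from 133, 137 and 105 to 555 and 522. Enzymes that process collagen had 8 of 22 called higher and 2 lower, or 5 higher after scaling to the same total. PCOLCE, the enhancer of procollagen processing, read 1020.5, 939.8 and 627 and then 8548 and 7464, and P4HA3, a prolyl hydroxylase subunit, 456, 361 and 299.9 and then 2590.4 and 2646, with 16.9 to 18.9 at day 0.

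Of 20 proteases and their inhibitors, 5 were called higher and 3 lower, against 14.7% and 17.3% of all genes. MMP2, a gelatinase, read 1301, 1191 and 753 at day 3 and 9445 and 7656 at day 21 (3.01, SE 0.24, adjusted p = 7.8e-06), and its inhibitor TIMP2 1246, 1415 and 812 and then 4539 and 4316. Of the plasminogen system, PLAUR, the urokinase receptor, read 1772, 2079 and 1846 and then 163 and 227 (-3.29, SE 0.20, adjusted p = 1.3e-06). SERPINF1, a secreted factor that inhibits vessel growth, rose from 14.8, 13.1 and 8.93 to 1439 and 1364 (6.75, SE 0.29, adjusted p = 1.3e-07). Without replicate 1 of day 21, 5 members were called lower.

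Adhesion genes were called in both directions. Of 26 integrin, cadherin and focal adhesion genes, 6 were called higher and 6 lower, with a median of 0.01. The laminin-binding integrin chains ITGA7 and ITGA3 fell, from 1145, 1335 and 1105 to 109 and 155 (-3.19, SE 0.21, adjusted p = 2.2e-06) and from 1017, 1461 and 737 to 108 and 182 (-2.87, SE 0.30, adjusted p = 4.7e-05). ITGB4, an integrin chain of hemidesmosomes, and CDH2, N-cadherin, had log2 changes of -2.88 and -2.93. ITGB5, a vitronectin receptor chain, rose from 1759.5, 1677 and 1168 to 4002 and 4749, TLN1, talin, from 2889, 3523 and 2813 to 8620.0 and 10353, and TNS1, tensin, from 1892, 1961 and 1710.2 to 9895 and 10725 (2.48, SE 0.17, adjusted p = 2.8e-06). The day 0 levels of ITGB5 and TNS1, 316 to 352 and 598 to 627, lay below both days. After scaling to the same total the median was -0.32.

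Sterol synthesis genes were high at day 3 and fell. Of 23 genes of cholesterol synthesis, 17 were called lower and 0 higher, with a median of -1.41. HMGCS1, the synthase ahead of the rate-limiting reductase, read 5059, 4202 and 4997 at day 3 and 856 and 808 at day 21 (-2.51, SE 0.18, adjusted p = 3.2e-06), against 311 to 425 at day 0. INSIG1, the sterol sensor that holds back SREBP processing, read 1409, 1391 and 1387 and then 258 and 189 (-2.65, SE 0.20, adjusted p = 4.3e-06), and IDI1 2378, 1845 and 2442 and then 425 and 309. SQLE, squalene epoxidase, read 773, 334 and 871 at day 3 and 135 and 55.0 at day 21, with the second day 3 library nearest to day 21. In 21 of the 23 genes both day 21 libraries were below all of day 3, against 33.5% of all genes, and the median log2 level of the list was 7.85 at day 0, 9.95 at day 3 and 8.39 at day 21.

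Fatty acid synthesis genes had 8 of 15 called lower, 0 higher and a median of -1.07. SCD, the stearoyl-CoA desaturase, read 3105, 2587 and 2983 at day 3 and 282 and 213 at day 21 (-3.55, SE 0.20, adjusted p = 6.3e-07), ACSS2, which makes acetyl-CoA from acetate, 674, 464 and 371 and then 46.9 and 48.1 (-3.33, SE 0.27, adjusted p = 7.7e-06), and ACLY, which makes it from citrate, 1547, 941 and 1289 and then 233 and 127. SCD had stood at 291 to 324 and ACSS2 at 11.1 to 14.1 at day 0. Of 16 listed genes of cholesterol efflux and the liver X receptors, 11 had a row and 7 were tested. ABCG1 had no row and ABCA1 was below the minimum. Of the 7, 4 were called higher and 0 lower, with a median of 2.49, and in 1 both day 21 libraries were below all of day 3. APOE, the apolipoprotein that accepts exported cholesterol, read 187, 194 and 121 and then 4423 and 2282 (4.27, SE 0.30, adjusted p = 3.0e-06), PLTP, the phospholipid transfer protein, 29.0, 22.1 and 14.3 and then 391 and 329.9, and MYLIP, which degrades the LDL receptor, 55.2, 44.3 and 55.3 and then 320.2 and 268.

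Genes of adipocytes and lipid droplets had 7 of 18 called higher and 2 lower, and 4 of the 7 had entered the test through day 21 alone. The count of falls was 1 without replicate 1 or 2 of day 3 and 4 without replicate 3 of day 3 or after scaling to the same total. FABP3, the fatty acid binding protein of heart and muscle, read 2840.0, 2651 and 1739 at day 3 and 60.7 and 75.6 at day 21 (-5.10, SE 0.24, adjusted p = 2.3e-07), against 304 to 394 at day 0. APOD, a lipocalin, had 3 reads over day 3 and 66 over day 21. The rises of the droplet genes PLIN1 and CIDEC were lost without replicate 1 of day 21 or replicate 1 or 2 of day 3, and PLIN1 read 37.3 and 6.87 in the day 21 libraries.

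**Figure D4:**
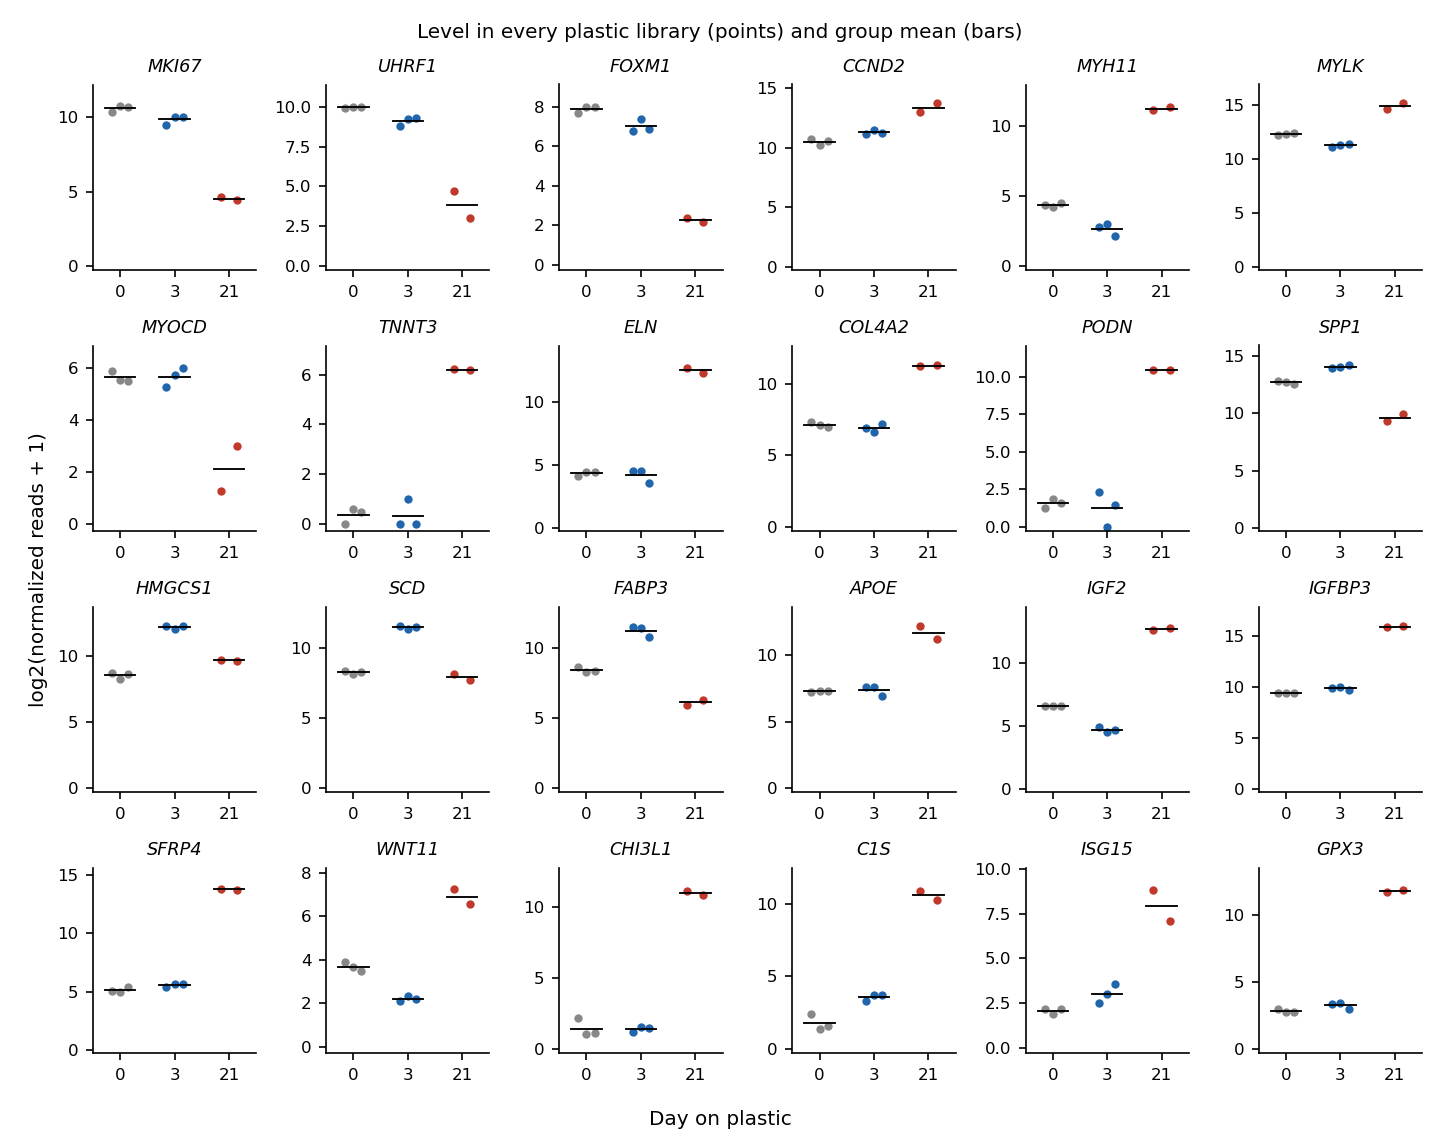
Each panel plots log2(normalized reads + 1) of 1 gene in every plastic library of day 0 (grey, 3 libraries), day 3 (blue, 3) and day 21 (red, 2), with group means as bars, and each panel has its own y axis. MKI67, UHRF1 and FOXM1 are lowest at day 21, HMGCS1, SCD and FABP3 are highest at day 3, and IGF2, SFRP4, ELN and GPX3 are far above both other days at day 21.

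The insulin-like growth factors act through IGF1R, are cleared by IGF2R and are bound by IGFBP proteins that hold or deliver them. Of 10 tested genes of this axis, 5 were called higher and 0 lower, with a median of 1.54. The ligand IGF2 read 28.3, 22.1 and 24.99 at day 3 and 6518 and 7009.9 at day 21 (8.02, SE 0.21, adjusted p = 3.0e-09), below its day 0 range of 96.3 to 97.1 at day 3 and above it at day 21. IGFBP3 read 968, 1056 and 860.5 and then 60321 and 64533 (6.02, SE 0.18, adjusted p = 6.9e-09), IGFBP5 119, 138 and 112 and then 853 and 1371, and IGF2R 812, 859 and 932 and then 5587 and 6539 (2.80, SE 0.18, adjusted p = 1.5e-06). The axis took 0.158% to 0.238% of normalized reads at day 3 and 1.30% in both day 21 libraries. The medium supplied an IGF at both days.

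WNT pathway genes were called in both directions, 10 of 22 higher and 8 lower, with a median of 0.86, or 1.84 at a minimum mean of 20. Secreted frizzled-related proteins, which bind WNT ligands outside the cell, were among the rises. SFRP4 read 42.4, 50.3 and 48.2 at day 3 and 14226 and 13858 at day 21 (8.20, SE 0.19, adjusted p = 9.8e-10), SFRP2 26.9, 22.1 and 46.4 and then 432 and 412 (3.76, SE 0.33, adjusted p = 1.4e-05), and SFRP1 3.37, 5.03 and 5.36 and then 138 and 134 (4.64, SE 0.41, adjusted p = 1.3e-05). Of the ligands, WNT11 rose from 3.37, 4.02 and 3.57 to 150.4 and 92.8 (4.68, SE 0.44, adjusted p = 1.9e-05). DKK1, an antagonist of the LRP co-receptors, fell from 66.0, 42.3 and 53.6 to 6.90 and 20.6 (-2.05, SE 0.46, adjusted p = 0.0049), and the receptor FZD6 fell from 74.8, 48.3 and 78.5 to 11.0 and 24.1. The falls of the ligand WNT2B and the transcription factor TCF7 were lost without replicate 2 of day 21, without replicate 3 of day 3 and under DESeq2. Without replicate 3 of day 3, 5 members were called lower. Rises of SFRP1, SFRP2, SFRP4 and WNT11 were called under all 16 alternative settings.

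Notch and hedgehog genes had 9 of 18 called higher and 2 lower, with a median of 1.35, or 0.85 without replicate 2 of day 21. NOTCH3, the receptor of mural and smooth muscle cells, read 391, 374 and 271 at day 3 and 1903 and 1900.2 at day 21 (2.48, SE 0.21, adjusted p = 1.0e-05), and its target HEYL 3.37, 3.02 and 7.14 and then 23.5 and 30.9. NOTCH1 read 112, 133 and 180.3 and then 24.8 and 34.4 (-2.21, SE 0.31, adjusted p = 2.9e-04), so the 2 receptors moved in opposite directions. Within hedgehog signalling, the ligand co-receptor BOC rose from 27.6, 39.2 and 28.6 to 181 and 203 and GLI3, the factor that represses targets without ligand, from 60.0, 54.3 and 69.6 to 342 and 381, while GLI1, the target that reports active signalling, had 99 reads over day 3 and 1 over day 21. After scaling to the same total 4 members were called lower.

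**Figure D5:**
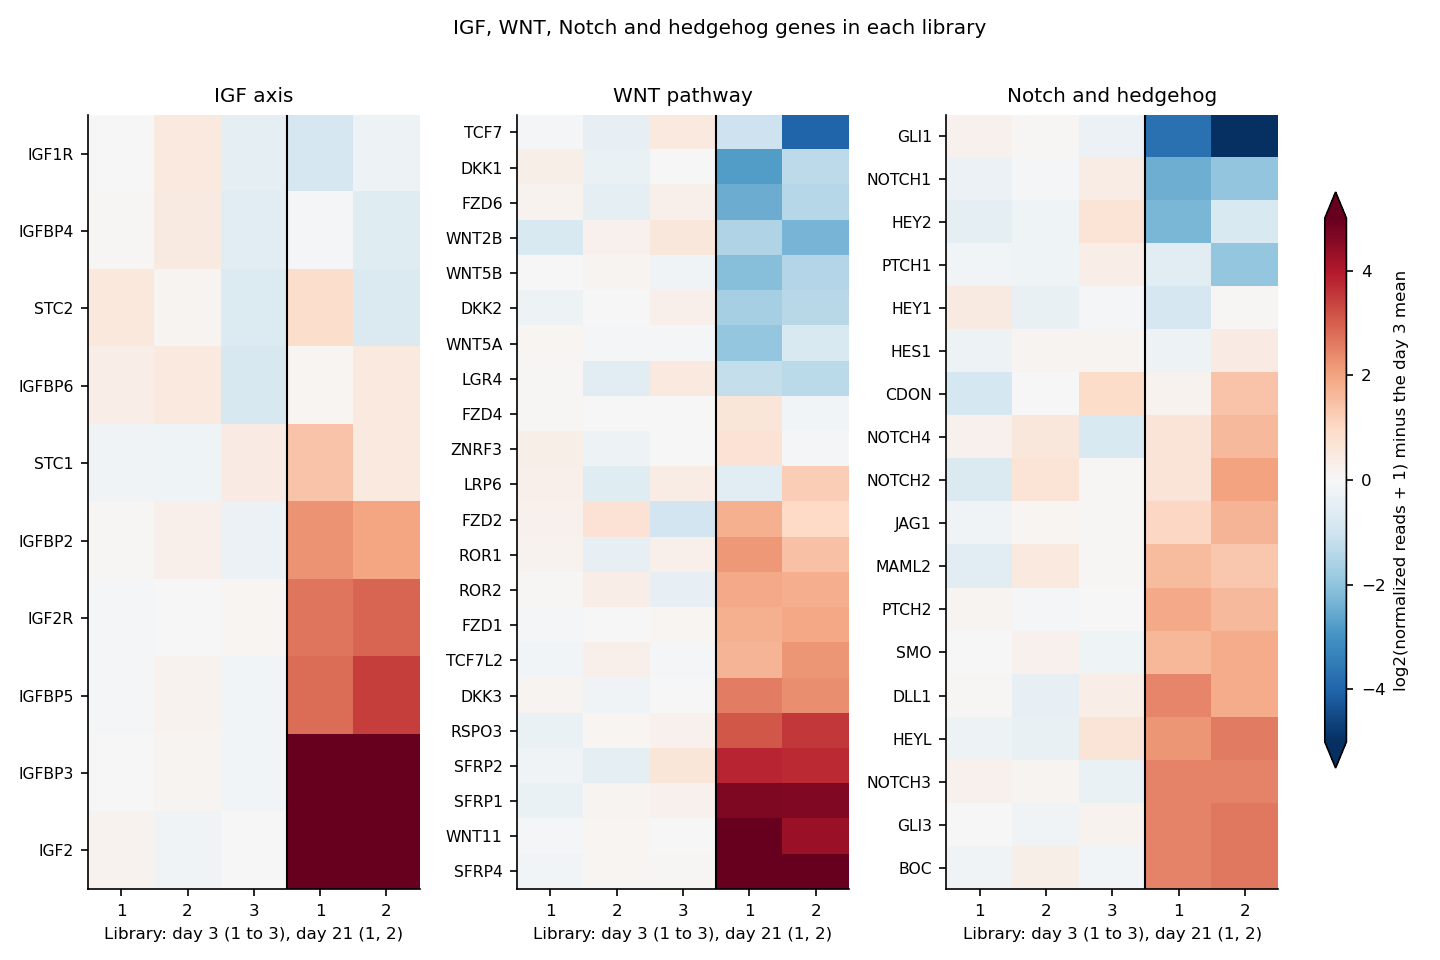
Each row is a tested gene of the IGF axis, the WNT pathway or Notch and hedgehog signalling and each column a library, with colour for log2(normalized reads + 1) minus the gene's day 3 mean, capped at 5 in either direction. The 3 day 3 columns are pale, and IGF2, IGFBP3 and SFRP4 exceed the top of the scale in both day 21 libraries while GLI1 is the darkest fall.

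Fibroblast growth factor genes and feedback targets of ERK had 6 of 23 called higher and 6 lower. FGF2 read 15.5, 10.1 and 17.9 at day 3 and 254 and 206 at day 21 (3.93, SE 0.35, adjusted p = 1.5e-05), the receptor FGFR1 71.4, 122 and 146 and then 316 and 471, and the feedback inhibitor SPRY1 76.1, 47.3 and 83.9 and then 909 and 505 (3.32, SE 0.32, adjusted p = 2.5e-05). The ligands FGF18 and FGF5 fell, from 99.7, 111 and 80.3 to 23.5 and 13.7 and from 57.9, 46.3 and 69.6 to 16.6 and 10.3, as did the AP-1 factor FOSL1, from 144, 174 and 171 to 13.8 and 24.1 (-3.09, SE 0.32, adjusted p = 3.7e-05). FGF10 read 91.1 in replicate 1 of day 21 and 17.2 in replicate 2, and its rise was not called without the first.

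Angiogenic factors had 10 of 23 called higher and 3 lower. VEGFA and its receptor FLT1 fell, from 142, 184 and 193 to 40.0 and 37.8 (-2.11, SE 0.27, adjusted p = 1.4e-04) and from 24.3, 33.2 and 39.3 to 5.52 and 6.87, and ANGPT2, the antagonist ligand of the TEK receptor, from 484, 427 and 466 to 137 and 127. HGF, a mitogen for epithelium and endothelium, rose from 68.0, 59.4 and 48.2 to 312 and 364 (2.52, SE 0.26, adjusted p = 3.6e-05), and ADM, the vasodilator adrenomedullin, from 1351, 1241 and 1423 to 23547 and 26627 (4.23, SE 0.17, adjusted p = 8.3e-08). Genes of TGF-beta, activin and BMP signalling, 26 tested, had 5 called higher and 4 lower, against 14.7% and 17.3% of all genes. Their median was 0.16, or -0.16 after scaling to the same total and 0.01 without replicate 2 of day 3. FST, follistatin, which binds activin and myostatin, read 4989.5, 6413 and 5912 and then 1108 and 1481 (-2.16, SE 0.20, adjusted p = 1.8e-05), and TGFB2 and TGFB3 rose from 12.1, 21.1 and 12.5 to 70.4 and 82.5 and from 32.3, 33.2 and 30.3 to 104 and 120.3.

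Retinoid genes had 8 of 14 called higher, 0 lower and a median of 1.30. CRABP1, which carries retinoic acid in the cell, read 14.1, 15.1 and 3.57 at day 3 and 711 and 581 at day 21 (5.96, SE 0.50, adjusted p = 1.0e-05), and ALDH1A1, which makes retinoic acid, 12.8, 11.1 and 23.2 and then 298 and 144 (3.71, SE 0.43, adjusted p = 7.8e-05). RARRES2, the retinoid-responsive adipokine chemerin, read 3.37, 4.02 and 1.79 and then 542 and 495 (7.04, SE 0.40, adjusted p = 6.9e-07). None of these genes overlapped between the days, as the choice of named genes required.

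Known glucocorticoid targets, of interest since dexamethasone was in the medium at both days, had 9 of 23 called higher and 4 lower. The shares over all genes were 14.7% and 17.3%. Of the 9, 3 had entered the test through day 21 alone, MAOA and KLF15 among them. GPX3, the plasma glutathione peroxidase, read 9.43, 10.1 and 7.14 at day 3 and 3377 and 3794 at day 21 (8.51, SE 0.26, adjusted p = 9.9e-09), and MAOA, monoamine oxidase A, 2.02, 2.01 and 1.79 and then 498 and 454 (7.34, SE 0.38, adjusted p = 3.6e-07). KLF15 and PDK4 rose too, KLF15 from 3.37, 1.01 and 5.36 to 119 and 41.2. Against these, MT2A, a metallothionein, fell from 2582, 3492 and 3269 to 618 and 594 and ERRFI1, a brake on the EGF receptor, from 1367, 1393 and 2158 to 309 and 265 (-2.48, SE 0.23, adjusted p = 1.9e-05).

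Complement genes had 10 of 13 called higher, 0 lower and a median of 4.15, and 3 of the 10 had entered the test through day 21 alone. The C1 proteases C1S and C1R read 8.76, 12.1 and 12.5 and 11.5, 8.05 and 0 at day 3 and 1900.4 and 1234 and 1068 and 646 at day 21 (6.998, SE 0.30, adjusted p = 1.3e-07 for C1S). SERPING1, which inhibits both, read 7.41, 5.03 and 3.57 and then 1027 and 632 (7.04, SE 0.38, adjusted p = 5.7e-07), and factor B of the alternative pathway, CFB, had 2 reads over day 3 and 181 over day 21. Replicate 1 of day 21 was above replicate 2 in 11 of the 13 genes, and the lower of both was still above all of day 3 in 12, against 32.5% of all genes.

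Of 28 listed genes of acute phase and innate defence, secreted proteins and receptors, 10 had a row. HP, LCN2, LBP and S100A8 were among those without one. Of 8 tested, 7 were called higher, with a median of 6.05. Of these 7, 4 had entered through day 21 alone. SCARA5, a scavenger and ferritin receptor, read 5.39, 8.05 and 8.93 at day 3 and 3442 and 2041 at day 21 (8.32, SE 0.33, adjusted p = 6.2e-08). The serum amyloid genes SAA3 and M-SAA3.2 read 472 and 219.9 and 466 and 216 at day 21 and had 1 and 2 reads over day 3. They are near-identical copies, so how reads were divided between them is uncertain. CD14, a co-receptor for bacterial lipopolysaccharide and a monocyte marker, read 14.8, 16.1 and 7.14 and then 56.6 and 65.3.

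Interferon-response genes had 10 of 24 called higher and 2 lower, with a median of 0.94. ISG15, a ubiquitin-like modifier, read 4.72, 7.04 and 10.7 at day 3 and 447 and 134 at day 21 (4.92, SE 0.52, adjusted p = 4.8e-05), MX1, an antiviral GTPase, 6.06, 6.04 and 5.36 and then 283 and 117 (4.75, SE 0.44, adjusted p = 1.9e-05), and IFI27 6.74, 3.02 and 1.79 and then 642 and 553 (7.08, SE 0.45, adjusted p = 1.6e-06). The 2 day 21 libraries differed here: replicate 1 was above replicate 2 in 21 of 24 genes, against 5769 of all 10989. ISG20, an exonuclease, fell from 47.2, 51.3 and 42.8 to 4.14 and 3.44 (-3.33, SE 0.40, adjusted p = 1.0e-04). Without replicate 1 or replicate 3 of day 3, 1 member was called lower. In antigen presentation, 5 of 12 were called higher and 2 lower. The peptide transporter TAP1 fell from 128, 89.6 and 129 to 17.9 and 13.7 (-2.78, SE 0.32, adjusted p = 8.5e-05) and the immunoproteasome subunit PSMB9 from 97.7, 104 and 99.97 to 30.4 and 20.6, while the subunit PSMB10 rose from 543, 631 and 407 to 1925 and 2199.

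Of 25 chemokines, cytokines and receptors, 8 were called higher and 3 lower. The 3 lower genes had entered the test through day 3 alone, and 3 of the 8 higher ones through day 21 alone. CX3CL1, fractalkine, read 6.06, 13.1 and 1.79 at day 3 and 181 and 103 at day 21 (4.40, SE 0.62, adjusted p = 2.9e-04), and CCL5 had 3 reads over day 3 and 42 over day 21. All 3 falls were in the interleukin-1 family: IL36A, the receptor IL1RL1 with 28 reads over day 3 and 0 over day 21, and the receptor antagonist IL1RN, at 16.2, 15.1 and 7.14 and then 1.38 and 0, a call lost under DESeq2. With a minimum mean of 20 the counts were 5 higher and 1 lower, and without replicate 1 of day 21, 5 were lower. Of 13 listed blood and immune markers 5 had a row, and PTPRC, AIF1, TYROBP, CD3E and ITGAM were among those without one. Of the 5, 3 were called higher and 0 lower, their sums given above. CD14 is counted in the innate defence list as well. The calls of CSF1R and LAPTM5 were lost in the fits without replicate 2 of day 21 or replicate 3 of day 3, leaving CD14. The part of such cells in these rises was not tested.

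Of 23 glycolysis genes, 9 were called lower and 1 higher, with a median of -0.63, and 0 were higher without replicate 1 of day 21 or replicate 1 of day 3. HK2, the inducible hexokinase, had 74 reads over day 3 and 1 over day 21, and LDHA read 4213, 3385 and 4818 at day 3 and 1013 and 553 at day 21 (-2.45, SE 0.26, adjusted p = 4.8e-05). PGAM1 read 11621, 11509 and 10022 and then 3804 and 3608 (-1.57, SE 0.17, adjusted p = 5.3e-05). Tricarboxylic acid cycle and pyruvate genes had 13 of 29 called lower and 1 higher, with a median of -0.78. CS, citrate synthase, read 789, 604 and 732 and then 174 and 158 (-2.08, SE 0.20, adjusted p = 2.6e-05), IDH2 725, 841 and 732 and then 163 and 158 (-2.24, SE 0.19, adjusted p = 1.0e-05), and DLD, a subunit shared by 2-oxo acid dehydrogenases, 159, 109.7 and 136 and then 27.6 and 13.7. The 1 rise was of PDK4, the kinase that shuts the pyruvate dehydrogenase complex, from 11.5, 12.1 and 10.7 to 175 and 92.8 (3.37, SE 0.39, adjusted p = 7.6e-05).

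Nuclear genes of oxidative phosphorylation had 17 of 69 called lower and 3 higher, with a median of -0.41, or -0.26 without replicate 2 of day 3. Beta oxidation and peroxisome genes had 4 of 29 called higher and 2 lower, and 7 lower without replicate 1 of day 21. CYCS, cytochrome c, was the largest fall, at 117, 182 and 149.9 and then 9.66 and 6.87 (-4.01, SE 0.34, adjusted p = 1.0e-05). COX7A1, the subunit isoform of heart and muscle, rose from 143, 114 and 92.8 to 806 and 1000.0 (2.96, SE 0.24, adjusted p = 7.7e-06). Hypoxia genes had 8 of 24 called lower and 3 higher, or 5 higher without replicate 2 of day 21. NDRG1 fell from 1113, 1000.2 and 1184 to 366 and 329.9 (-1.66, SE 0.18, adjusted p = 6.2e-05), and HIF3A, the inhibitory HIF subunit, had 0 reads over day 3 and 139 over day 21, at least 139-fold higher from a floor of 3 reads over the day 3 group.

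Cytosolic ribosomal proteins, 55 rows tested including copies that share a symbol, had 5 called higher and 0 lower, and their median of 0.31 became -0.02 after scaling to the same total and -0.17 under quantile normalization. The count was 0 and 1 under these scalings, 3 without replicate 2 of day 21 and 8 without replicate 2 of day 3. Ribosome biogenesis genes had 6 of 26 called lower and 0 higher, 12 after scaling to the same total and 3 without replicate 3 of day 3, and FBL, fibrillarin, fell from 2009, 2748 and 2326 to 970.2 and 691 (-1.52, SE 0.21, adjusted p = 2.9e-04). Cytosolic chaperones and the chaperonin had 11 of 28 called lower and 1 higher, or 17 lower after scaling to the same total.

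Of the small heat shock proteins, CRYAB, alpha-B crystallin, read 7440.2, 7433 and 4632 at day 3 and 551 and 539 at day 21 (-3.54, SE 0.23, adjusted p = 1.7e-06), and HSPB7 208, 224 and 164 and then 6.90 and 10.3 (-4.39, SE 0.32, adjusted p = 3.6e-06), while HSPB6 rose from 946, 629.9 and 389 to 9452 and 6790.0 (3.70, SE 0.32, adjusted p = 1.1e-05). At day 0 CRYAB had stood at 2332 to 2502 and HSPB7 at 852 to 1007.

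Amino acid response genes under ATF4 had 11 of 23 called lower and 3 higher, with a median of -0.95. PHGDH, the first enzyme of serine synthesis, read 1553, 1805 and 1192 at day 3 and 396 and 450.1 at day 21 (-1.82, SE 0.21, adjusted p = 8.6e-05), the amino acid carrier SLC7A5 265, 425 and 339 and then 63.5 and 107, and the pseudokinase TRIB3 67.4, 63.4 and 104 and then 20.7 and 13.7. The 3 members called higher were transcription regulators, and other such factors of the list, ATF4 included, were not called higher. NUPR1, a stress-induced chromatin protein, read 9.43, 7.04 and 5.36 and then 1453 and 1825 (7.65, SE 0.32, adjusted p = 8.8e-08), ATF5 718, 845 and 591 and then 2919 and 3199 (2.10, SE 0.20, adjusted p = 2.2e-05), and DDIT3, the factor CHOP, 331, 320.0 and 268 and then 657 and 728, the last not called after scaling to the same total. Chaperones of the endoplasmic reticulum had 4 of 25 called lower and 1 higher, against 17.3% and 14.7% of all genes. After scaling to the same total 14 were called lower. MANF, a secreted stress factor, fell from 2199, 2270.0 and 2576 to 831 and 625 (-1.70, SE 0.19, adjusted p = 7.5e-05).

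Lysosome and autophagy genes had 14 of 44 called higher and 2 lower, with a median of 0.60. LAMP1, the lysosomal membrane protein, read 1241, 1399.7 and 784 at day 3 and 4316 and 5041 at day 21 (2.07, SE 0.25, adjusted p = 9.5e-05), the cathepsin CTSF 301, 272 and 245 and then 2112 and 1907 (2.88, SE 0.19, adjusted p = 1.8e-06), and IDUA, which degrades glycosaminoglycans, 4.72, 8.05 and 7.14 and then 104 and 131 (3.97, SE 0.41, adjusted p = 3.6e-05). CTSC fell from 1679, 1764 and 1853 to 618 and 491 (-1.68, SE 0.19, adjusted p = 6.1e-05). The count of falls was 1 to 6 when single libraries were left out, with 6 without replicate 2 of day 3. Antioxidant genes had 8 of 34 called higher and 10 lower. Secreted enzymes were among the rises, GPX3 as above and SOD3, the extracellular superoxide dismutase, from 200.1, 172 and 109 to 1591 and 1155 (3.12, SE 0.27, adjusted p = 1.3e-05), and the intracellular peroxiredoxin PRDX1 and the glutathione reductase GSR were among the falls, from 15817, 20734 and 15270.0 to 6409 and 6896 and from 154, 104 and 187 to 27.6 and 27.5 (-2.34, SE 0.32, adjusted p = 2.2e-04).

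Positional and lineage transcription factors had 12 of 47 called higher and 3 lower, or 7 and 6 after scaling to the same total. OSR2 rose from 130.0, 93.6 and 67.8 to 549 and 443 (2.38, SE 0.29, adjusted p = 1.0e-04), SNAI1 from 146, 138 and 118 to 424 and 454 and the precursor factor EBF2 from 17.5, 21.1 and 26.8 to 113 and 65.3, and FOXF1, a factor of visceral mesenchyme, fell from 155, 154 and 193 to 63.5 and 37.8 (-1.74, SE 0.29, adjusted p = 8.8e-04). Immediate early and Kruppel-like factors had 6 of 23 called higher and 3 lower. EGR1 rose from 136, 105 and 94.6 to 295 and 329.9 (1.49, SE 0.24, adjusted p = 7.0e-04) and NR4A1 fell from 290.3, 263 and 234 to 38.6 and 37.8 (-2.74, SE 0.24, adjusted p = 1.3e-05). After scaling to the same total 3 were higher and 5 lower.

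Markers of mesenchymal stem cells, most of them surface antigens, changed in both directions, 5 of 11 called higher and 1 lower. THY1, CD90, read 1052, 747 and 594 at day 3 and 16478 and 19765 at day 21 (4.54, SE 0.24, adjusted p = 4.5e-07), ENG, CD105, 736, 827 and 543 and then 2935 and 3879.5 (2.29, SE 0.22, adjusted p = 2.8e-05), and ANPEP, CD13, 66.0, 48.3 and 21.4 and then 1383 and 1172 (4.92, SE 0.39, adjusted p = 6.9e-06). CD44, the hyaluronan receptor, fell from 1000.3, 1105 and 1144 to 334 and 337 (-1.69, SE 0.18, adjusted p = 4.8e-05). The count of falls was 3 without replicate 2 of day 3 and after scaling to the same total. VCAM1, CD106, rose from 1.35, 1.01 and 3.57 to 247 and 113 (5.92, SE 0.55, adjusted p = 1.9e-05). NT5E, CD73, read 368.5, 342.1 and 408.8 at day 3 and 165.6 and 209.6 at day 21, and ALCAM 37.05, 31.19 and 69.62 and then 19.32 and 24.05. Neither was called. Day 21 lay above all of day 3 in 5 of the 11 and below it in 3, against 32.5% and 33.5% of all genes.

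Markers of other mesenchymal lineages gave no single direction. Of 9 listed pericyte markers 6 had a row, and RGS5, ABCC9 and HIGD1B had none. Of 5 tested pericyte markers 3 were called higher, NOTCH3, ANPEP and KCNJ8, and MCAM had 1 read over the 5 libraries. Of 15 listed cartilage markers 7 had a row, and SOX9, COL2A1, COL9A1 and COL11A2 were among those without one. Of 4 tested, 3 were called higher, FMOD, SOX5 and PRG4 (lubricin, 1 read over day 3 and 225 over day 21). The cartilage matrix genes ACAN, HAPLN1 and COMP were below the minimum, with 2, 8 and 0 reads over day 21. Of the 2 bone markers tested SPP1 fell, and RUNX2, at 39.1, 57.4 and 55.3 and then 75.9 and 82.5, was not called. ALPL had 4 reads over day 3 and 6 over day 21, and SP7 had 6 and 0. Of 4 tested tendon markers 2 were called higher, FMOD and EGR1, both given above, and 1 lower. MKX fell from 104, 118 and 146 to 56.6 and 37.8 (-1.38, SE 0.30, adjusted p = 0.0039), and SCX and THBS4 had 0 reads over day 21.

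The day 3 libraries differed among themselves. Replicate 2 of day 3 was the lowest of its group in 1069 of the 1904 genes called lower, against 3818 of all 10989, and replicate 3, the shallowest, was the lowest in 1033 of the 1618 called higher, against 4589 of all. Without replicate 2 of day 3, 3708 genes were called, and without replicate 3, 3055. Leaving out replicate 2 of day 21, with 2197356 reads, left 2791 calls, of which 2570 were shared in direction with the 3522. The part of depth in these differences was not tested.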

How the data were processed

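Polyadenylated RNA of 17 libraries was read by MARS-seq, and the 5 plastic libraries of day 3 (3) and day 21 (2) were compared. The authors deposited 1 table of normalized signal, reads per gene divided by 1 scaling factor per library. Per the submitters' processing notes, cutadapt, STAR, HTSeq and DESeq were used with ARS-UCD1.2. Strand setting and collapsing of molecular identifiers are not given in the sources used here. Whole reads were recovered for every value of the 15 matched libraries (tolerance 0.1). A further 2 value columns matched no sample and were not used, and the 2 day 0 scaffold libraries were not analysed here.

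Genes with a mean of at least 5 over the 5 libraries were fitted as log2(value + 1) with limma 3.58.1 (R 4.3.3, trend and robust), with Benjamini-Hochberg adjustment over 10989 genes. A call needed an adjusted p under 0.05 and a log2 change of at least 1. The fit was tested on simulated data. Counting intervals and floors (95%, 3 reads) cover counting error only. Alternatives were edgeR 4.0.16 and DESeq2 1.42.0 on recovered reads, other scalings, pseudocounts, minimums and models, the replicate block, all matched libraries in the fit, and each library left out.

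Gene lists and the members compared were chosen with earlier results of these data known. Named genes were the 12 largest rises and falls, the 8 largest in reads, up to 4 called members per list and direction, and landmark genes. Other genes named (marker and list genes below the minimum or without a row, RUNX2, NEXN, NT5E, ALCAM and ATF4) were chosen after their values were seen. Promoter motifs were not searched, as no sequence was used here, and symbols were taken from the deposited table. Some genes of the lists are not reported here by name.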

Additional observations from a re-analysis of the deposited data

How the results depend on the processing

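The total of 3522 calls lay between 2791 and 3708 when single libraries were left out, and between 3007 and 3864 under the other alternatives. Of 299 named genes, 244 kept their call or lack of one under every alternative in which they were tested and 0 reversed, and 261 of them were tested at a minimum mean of 20. Landmark genes aside, the 299 were chosen as called genes whose libraries did not overlap. Leaving a library out or changing the pseudocount could therefore not reverse them, and the 0 is no check under those settings. The settings with the most losses were the fit without replicate 2 of day 21 (33 genes) and scaling to the same total (24). Scaling to the same total gave 4 smooth muscle genes called lower, 2 collagen chains, 2 elastic fibre genes and 1 complement gene. Quantile normalization gave 4 smooth muscle genes called lower. WNT genes called lower were 5 under DESeq2 and 5 with a minimum mean of 20, and interferon genes called lower were 1 without the trend and robust options of limma, both dropped together. With single libraries left out, the counts called lower ran from 1 to 2 for smooth muscle, 0 to 1 for collagen chains, 5 to 7 for WNT, 0 to 1 for complement and 1 to 3 for interferon genes, and tricarboxylic acid cycle genes called higher from 1 to 2. With a day 21 library left out, the spread came from day 3 alone. The cause of these differences was not tested. The shallowest library, replicate 2 of day 21, counted 1 read as 3.44 normalized reads, which limits genes near 0 at day 21. The promoter motif search was not run.

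With the replicate number as a block, 3288 genes were called, 1493 higher and 1795 lower, and 1 collagen chain was called lower. Deviations of same-numbered libraries correlated at 0.162 and 0.109 over 2 pairs, too few to show whether equal numbers pair the libraries, and the labels tie no number to a shared source.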

Other observations

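Genes without a symbol made up 824 of the 10989 tested, of which 160 were called higher and 99 lower at day 21. The following genes were chosen after their values were seen. ENSBTAG00000054745 had the largest log2 change of any tested gene on the log2(value + 1) scale, close to that of CHI3L1 at 9.53 (SE 0.34), with 93.0, 78.5 and 71.4 normalized reads at day 3 and 56363 and 67216 at day 21, a log2 change of 9.56 (SE 0.19, limma adjusted p = 5.9e-10). Its mean at day 0 was 1319. ENSBTAG00000038361 read 33.01, 42.3 and 23.2 at day 3 and 0 in both day 21 libraries, at least 11.6-fold lower from a floor of 3 reads over the day 21 group.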
